A study of Mus musculus with 4 samples.

Results

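The genes described here are the apelin and angiopoietin genes of mouse lung: the ligand and receptor genes Apln and Aplnr, the angiopoietins Angpt1, Angpt2 and Angpt4, the receptor tyrosine kinases Tek and Tie1, and the angiopoietin-like genes Angptl2 and Angptl4. They were chosen by name, each read from the row of the deposited table that carries its symbol alone. Of the 9 listed genes, 8 were measured, out of 30142 genes in all, and Angptl2 was not analysed here. The samples were lung cells without the leukocyte marker CD45, from C57BL/6 mice. One group had received bleomycin (BLM), a DNA-damaging drug that leads to lung fibrosis, into the trachea, and the control group phosphate-buffered saline (PBS) by the same route. Total RNA was taken at day 10 in both groups and put on 1 Affymetrix array per sample, 2 arrays with BLM and 2 with PBS. The labels do not say whether each sample came from its own animal or from a pool, so the p-values rest on a spread that may be technical alone.

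Apelin is a secreted peptide that acts on a G protein-coupled receptor encoded by Aplnr. In mouse lung, Apln is a marker of the large, thin capillary cells called aerocytes, and Aplnr of the general capillary cells beside them. Angiopoietin-1, made largely by cells around vessels, activates the receptor Tek (also called Tie2) on endothelium and keeps vessels quiet, while angiopoietin-2, made and stored by endothelial cells themselves, can act against it or in its place. Tie1 is a related receptor that modifies Tek signalling. Angiopoietin-like proteins share the build of angiopoietins but do not act through Tek, and Angptl4 is best known as an inhibitor of lipoprotein lipase.

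All values are log2 levels as deposited, and a difference is the BLM mean minus the PBS mean, with its standard error (SE) and n = 2 arrays per group. "Rose" and "fell" are used of genes with an adjusted p under 0.05 in a limma fit over all 30142 genes. In that fit 25.3% of all genes passed, 15.2% higher and 10.1% lower in BLM. The 2 arrays of a group differed by 0.134 log2 units on average between the BLM arrays and 0.157 between the PBS arrays, against 0.329 to 0.342 for arrays of different groups. Treatment and sex-linked expression cannot be told apart in these samples: Xist, the RNA of the inactive X chromosome, lay at 5.60 and 5.43 on the BLM arrays, against 15.86 and 15.61 on the PBS arrays, and the 3 measured Y-linked genes rose. The labels give no sex. Any effect that goes with this split cannot be told apart from treatment for any of the 30142 genes, autosomal ones included.

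Of the 8 measured genes, 5 rose (Aplnr, Angptl4, Apln, Angpt2 and Angpt1), none fell, and 3 did not pass (Tie1, Angpt4 and Tek). That compares with 15.2% of all genes called higher. Of the 5, 4 rose at least 2-fold, which 2.81% of all genes did, and Angpt1 stood just below that at 1.99-fold. The BLM and PBS values did not overlap for 7 of the 8, where 63.3% of all genes show no overlap. In 6 of these 7 the BLM values were the higher, as in 38.0% of all genes. The median difference of the 8 was 1.02, beside 0.05 over all genes. In the order of their differences, Aplnr (95% interval 2.39 to 2.86) stood above Angptl4 (1.45 to 1.93) with no overlap of the intervals. On the PBS arrays Angptl4 (6.64 and 6.81) lay nearer than Aplnr (9.07 and 9.14) to the median level of all genes, 6.03. Near that level the array compresses differences, and the part of this in the order of Aplnr and Angptl4 was not tested. The intervals of Apln (0.80 to 1.52), Angpt2 (0.81 to 1.26) and Angpt1 (0.72 to 1.27) overlapped widely, so no order among these 3 can be read.

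**Figure D1:**
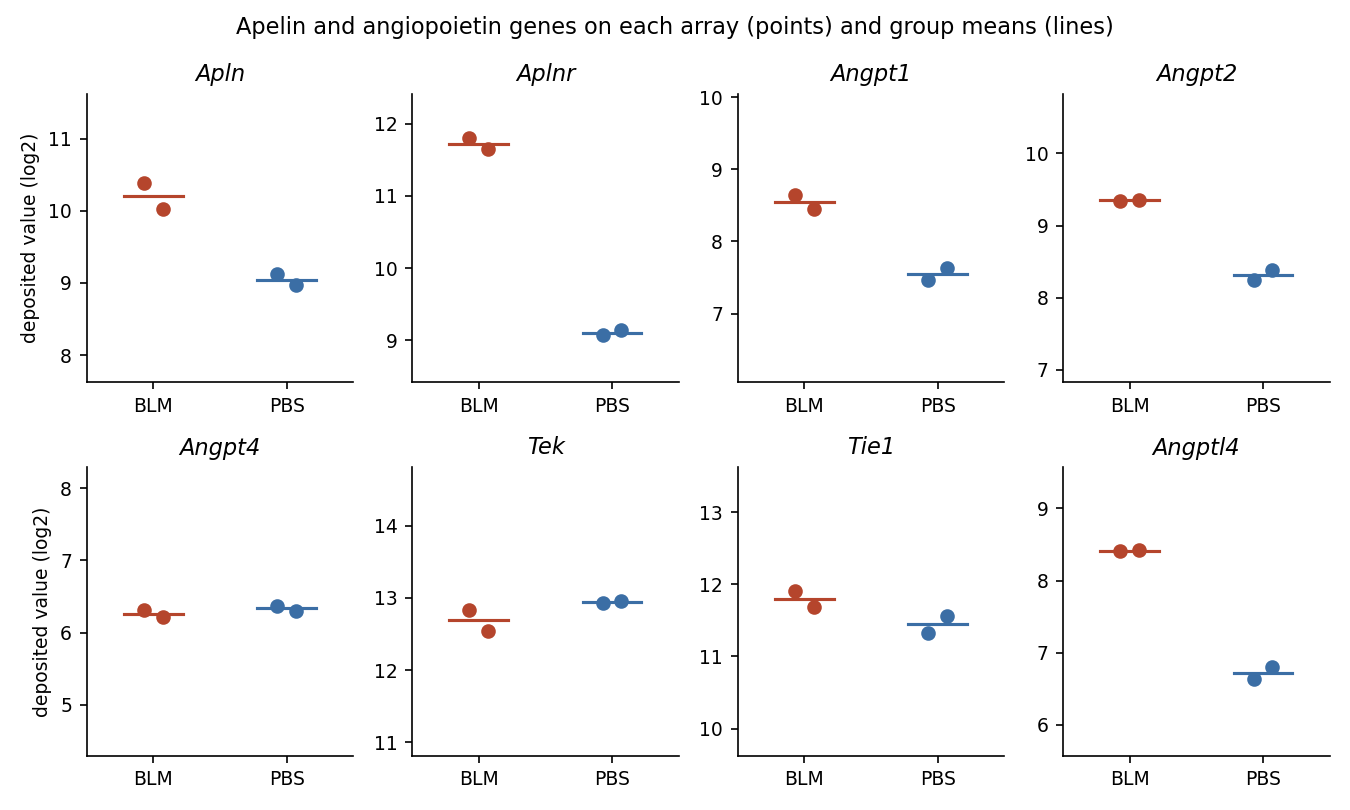
Deposited log2 values of the 8 measured genes on each array, BLM on the left and PBS on the right of each panel, with 1 point per array and a line at the group mean; every panel spans 4 log2 units, but levels of different genes are not comparable. The 2 BLM points lie clear above the PBS points for Aplnr, Angptl4, Apln, Angpt2 and Angpt1.

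Both genes of the apelin pair rose, and the receptor's difference was the greatest of the 8. Aplnr lay at 11.80 and 11.65 on the BLM arrays, against 9.07 and 9.14 on the PBS arrays. The BLM arrays were thus far above the PBS arrays, with a gap of 0.15 between replicates at most. The difference was 2.62 (SE 0.09, adjusted p = 0.00028), or 6.15-fold (95% interval 5.22 to 7.24), and 63 of the 30142 genes had a greater one. Apln lay at 10.38 and 10.02 on the BLM arrays, against 9.12 and 8.97 on the PBS arrays. Its BLM arrays were both higher, but they lay 0.36 apart, the widest gap between replicates among the 8 genes. Apln rose by 1.16 (SE 0.14, adjusted p = 0.00432), or 2.23-fold (95% interval 1.74 to 2.86).

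Apln is the only one of the 8 genes on the X chromosome, per the RefSeq gene table (GRCm38.p6). Among the 1825 X-linked genes measured, Apln included and Xist left out, 215 rose and 106 fell, with a median difference of 0.06, and 23 had a greater difference than Apln. On the autosomes 4313 of 27932 genes rose and 2917 fell, with a median of 0.049. The part of sex-linked expression in the Apln difference was not tested, nor was that of sex in the differences of the autosomal genes.

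The 250 bases before the start of Apln, the ligand gene that rose, are shown with those of Tie1, a receptor gene that did not pass. They come from RefSeq (GRCm38.p6), whose promoter table matched 4 of the 8 genes, and capitals mark GGAA on either strand (TTCC where it lies on the other), the core bound by ETS factors, which act in many endothelial promoters.
Apln, chrX:48034854-48035103, minus strand: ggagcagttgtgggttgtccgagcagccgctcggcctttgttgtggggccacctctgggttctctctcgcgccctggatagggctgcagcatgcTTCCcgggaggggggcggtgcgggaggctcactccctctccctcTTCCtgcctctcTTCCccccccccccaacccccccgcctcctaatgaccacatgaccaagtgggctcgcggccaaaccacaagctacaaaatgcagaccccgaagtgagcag
Tie1, chr4:118489850-118490099, minus strand: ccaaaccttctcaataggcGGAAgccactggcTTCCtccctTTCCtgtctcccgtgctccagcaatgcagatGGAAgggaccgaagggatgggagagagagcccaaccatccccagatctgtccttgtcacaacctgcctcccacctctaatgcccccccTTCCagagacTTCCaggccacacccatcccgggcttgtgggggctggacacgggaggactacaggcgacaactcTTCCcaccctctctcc
The Apln window held 3 such matches and the Tie1 window 7. Among the other matched genes, which did not pass either, the Tek window held 2 and the Angpt4 window 5. Of the 32851 windows of this length in the table, 93.4% held at least 1, with a median of 3. The letters ACGTG, the core of the hypoxia response element, searched on both strands, were found in none of these 4 windows. They were found in 16.6% of all windows.

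Genes that make, cut or relay apelin moved in both directions. Of 8 listed, 4 were measured. Mme, the peptidase neprilysin that can degrade apelin, fell to 11.94 and 11.87 on the BLM arrays, against 12.96 and 13.01 on the PBS arrays, a difference of -1.08 (SE 0.08, adjusted p = 0.00111). Arrb1, which encodes the receptor-binding beta-arrestin 1, rose by 0.51 (SE 0.09, adjusted p = 0.0113). Furin, a convertase that processes the apelin precursor, rose by 0.34 (SE 0.08, adjusted p = 0.0337). The prohormone convertase gene Pcsk1, named after its value was seen, stood at -0.16 and did not pass. The call of Furin ended whichever array was left out (adjusted p = 0.143 for BLM replicate 1, 0.154 for BLM replicate 2, 0.107 for PBS replicate 1 and 0.0659 for PBS replicate 2). That of Arrb1 ended without BLM replicate 1 (adjusted p = 0.0735) or BLM replicate 2 (adjusted p = 0.0537), so that 1 of the 3 calls was left in either case. Apela, the second ligand of the receptor, was not analysed here.

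The opposing ligands of Tek rose by similar amounts. Angpt1 lay at 8.64 and 8.45 on the BLM arrays, against 7.47 and 7.63 on the PBS arrays, and rose by 0.99 (SE 0.11, adjusted p = 0.00313). Angpt2 lay at 9.34 and 9.36 on the BLM arrays, against 8.25 and 8.38 on the PBS arrays, and rose by 1.04 (SE 0.09, adjusted p = 0.00152), or 2.05-fold. For both genes each BLM array was higher than each PBS array by several times the gap between replicates. Angpt4, in the mouse an activator of Tek, lay at 6.31 and 6.21 on the BLM arrays, against 6.37 and 6.30 on the PBS arrays. These groups overlapped, and the difference was -0.07 (95% interval -0.29 to 0.15, adjusted p = 0.608). The Angpt4 values lay near the median level of all genes, 6.03, where the array compresses differences, so a change of its RNA may have been missed.

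Neither of the receptor tyrosine kinase genes, Tek and Tie1, passed the threshold. Tek lay at 12.84 and 12.54 on the BLM arrays, against 12.93 and 12.96 on the PBS arrays. Both BLM values were the lower, the first by less than the gap of 0.30 between the BLM replicates, and the difference was -0.25 (95% interval -0.56 to 0.05, adjusted p = 0.198). Tie1 lay at 11.91 and 11.69 on the BLM arrays, against 11.33 and 11.56 on the PBS arrays. Here both BLM values were the higher, but the nearest pair lay closer together than the replicates, and the difference was 0.35 (95% interval 0.04 to 0.66, adjusted p = 0.101). As folds, the interval of Tek runs over 0.678 to 1.04 and that of Tie1 over 1.03 to 1.58, so changes of those sizes remain possible. After cyclic loess scaling Tek did pass, at -0.44 (adjusted p = 0.0411), while Tie1 stood at 0.17 (adjusted p = 0.331).

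Of 21 genes that take part in angiopoietin and Tie signalling, 7 rose, 4 fell and 10 did not pass, with a median of 0.13. Mmp14, a membrane-bound protease, rose by 3.20 (SE 0.11), and Svep1, a secreted matrix protein needed for lymphatic vessels, by 2.09 (SE 0.15). Svep1 lay at 10.64 and 10.57 on the BLM arrays, against 8.32 and 8.71 on the PBS arrays. Grb7 and Grb14, adaptors that can bind activated Tek, fell by 1.36 (SE 0.08) and 1.34 (SE 0.10). Ptprb, the endothelial phosphatase that dephosphorylates Tek, lay at 14.03 and 13.88 on the BLM arrays, against 14.43 and 14.58 on the PBS arrays, and fell by 0.55 (SE 0.10, adjusted p = 0.016). Foxo1, the transcription factor that Tek signalling holds back, stood at 0.19 (adjusted p = 0.36), and the activity of its protein was not measured. Nos3, the endothelial nitric oxide synthase, stood at -0.20 (adjusted p = 0.224). The list's 11 calls became 6 without BLM replicate 1 or 2 and 7 without PBS replicate 2, and that of Ptprb was lost without BLM replicate 2 (adjusted p = 0.0861) or PBS replicate 2 (adjusted p = 0.0584).

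**Figure D2:**
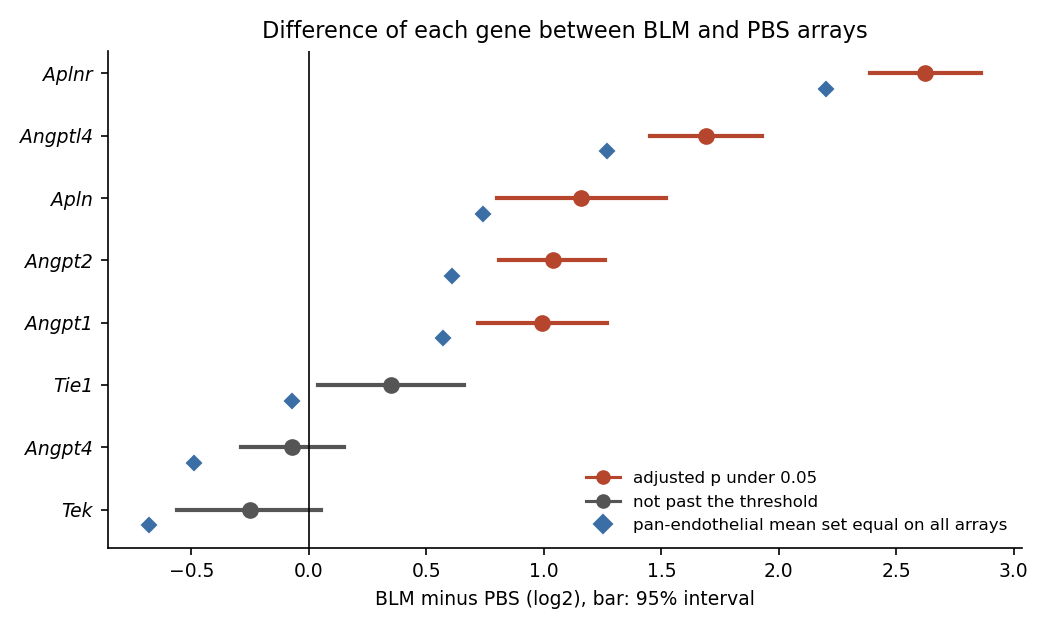
Difference of each gene between BLM and PBS arrays in log2 units, with its 95% interval from the limma fit (points and bars, n = 2 arrays per group), and the same difference after each array was shifted so that the mean of the pan-endothelial markers was equal on all 4 (diamonds). Aplnr stands at 2.62, and at 2.20 after the shift, while Tie1 moves to -0.07.

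Angptl4 rose by 1.69 (SE 0.09, adjusted p = 0.00051), or 3.22-fold (95% interval 2.74 to 3.80). Its values were 8.41 and 8.42 on the BLM arrays, against 6.64 and 6.81 on the PBS arrays. The BLM arrays were 0.01 apart, and each lay well above both PBS arrays. The other angiopoietin-like genes gave no calls: of 5 listed, 4 were measured, named here after their values were seen, and Angptl1 (-0.17), Angptl6 (-0.01), Angptl7 (0.00) and Angptl8 (0.13) all failed the threshold. At an unadjusted p under 0.05 in the same limma fit, 0 of these 4 passed. Their values averaged 5.48 and 5.55 on the BLM arrays and 5.44 and 5.61 on the PBS arrays, below the median of all genes.

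Angptl4's target enzyme rose with it. Of 8 measured genes that handle lipoprotein lipase or bind angiopoietin-like proteins, 5 rose, 1 fell and 2 did not pass, with a median of 0.49. Lpl, lipoprotein lipase itself, lay at 10.12 on both BLM arrays, against 8.18 and 8.36 on the PBS arrays, and rose by 1.85 (SE 0.10, adjusted p = 0.000455). Lipg, the endothelial lipase, rose by 1.38 (SE 0.08), and Gpihbp1, which carries lipoprotein lipase to the capillary wall, by 1.15 (SE 0.23, adjusted p = 0.0198). Pirb, a mouse receptor that binds angiopoietin-like proteins, rose by 0.57 (SE 0.11). The 6 calls became 3 without BLM replicate 1 or BLM replicate 2, and the call of Gpihbp1 was lost without the first (0.95, adjusted p = 0.0778). That of Pirb was lost without BLM replicate 2 (0.45, adjusted p = 0.0891) or PBS replicate 2 (0.50, adjusted p = 0.0737).

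Angptl4 is induced through PPAR receptors in many tissues, and Apln, Angpt2 and Angptl4 are all known to respond to low oxygen. Of 11 measured PPAR targets and receptors, 1 rose, 3 fell and 7 did not pass, with a median of 0.00. Plin2, a lipid droplet coat gene, rose by 1.40 (SE 0.09), whereas Pdk4, a kinase that spares glucose, fell by 1.46 (SE 0.10). Without BLM replicate 2 the 4 calls became 2, with those of Acaa2 (-0.49, adjusted p = 0.0606) and Ppara (-0.43, adjusted p = 0.102) lost. The call of Ppara also ended without BLM replicate 1 (adjusted p = 0.114) or PBS replicate 2 (adjusted p = 0.076). Of 16 hypoxia-induced genes and regulators, 7 rose, 5 fell and 4 did not pass, with a median of 0.25. Ankrd37 rose by 2.67 (SE 0.09), Ndrg1 by 1.37 (SE 0.09), Adm, the vasodilator peptide adrenomedullin, by 1.24 (SE 0.13), and Egln3, an oxygen-sensing hydroxylase, by 0.72 (SE 0.11). The falls numbered 5, or 3 with the replicate number as a block, and were fewer without any single array. The 5, named after their values were seen, were Epas1 (-0.54), P4ha1 (-0.49), Hilpda (-0.48), Bnip3 (-0.43) and Pdk1 (-0.40). Hif1a, the oxygen-regulated transcription factor, rose by 0.58 (SE 0.09), but the activity of its protein was not measured. Vegfa, its best-known vascular target, stood at 0.03 (adjusted p = 0.861). The Vegfa difference changed sign after cyclic loess scaling (-0.16) and without BLM replicate 1 or PBS replicate 1 (-0.01 each). The 12 hypoxia calls became 7 without BLM replicate 1 and 4 without BLM replicate 2, where Hif1a also lost its call (adjusted p = 0.0599).

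The change of a pair of genes can be compared within each array, which cancels any scale factor common to both. Angpt2 minus Angpt1 was 0.70 and 0.91 on the BLM arrays, against 0.77 and 0.75 on the PBS arrays. These values overlapped, and the mean change was 0.04 log2 units (-0.06 to 0.15 when each array was left out), so no shift of the balance between the 2 ligands was detected. Angpt2 minus Tek was -3.50 and -3.18 on the BLM arrays, against -4.69 and -4.58 on the PBS arrays, a change of 1.29. Apln minus Aplnr was -1.42 and -1.63 on the BLM arrays, against 0.05 and -0.17 on the PBS arrays, a change of -1.46, since the receptor rose by more than its ligand. Tie1 minus Tek was -0.93 and -0.85 on the BLM arrays, against -1.60 and -1.40 on the PBS arrays, a change of 0.61. In these 3 pairs the groups did not overlap. By an exact two-sided permutation test over arrays each gave p = 0.333 (0.444 after Benjamini-Hochberg adjustment over the 4 pairs), the smallest p that 2 arrays against 2 allow, and Angpt2 minus Angpt1 gave p = 1.

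**Figure D3:**
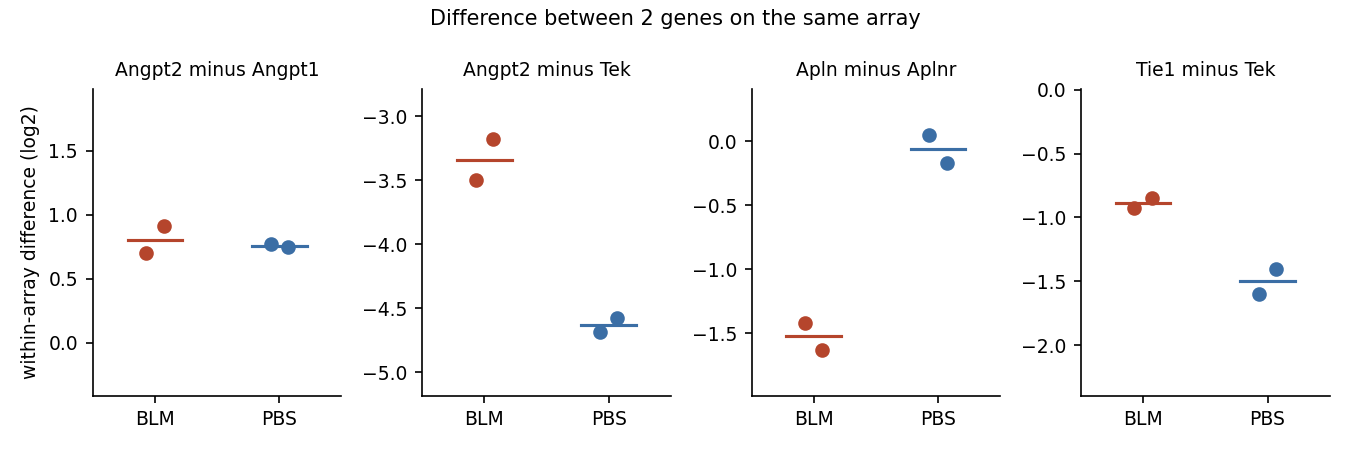
Difference in log2 level between 2 genes on the same array, BLM on the left and PBS on the right, with 1 point per array and a line at the group mean; only the change between groups can be read, not the sign of a value. The groups overlap for Angpt2 minus Angpt1 and are apart for the other 3 pairs.

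Several of these genes are expressed mainly by endothelial cells, and in RNA from a mixed cell fraction more cells of a type and more RNA per cell cannot be told apart. Of 14 measured pan-endothelial markers, 7 rose, 1 fell and 6 did not pass, with a median of 0.32. Their mean level was 11.07 and 10.91 on the BLM arrays, against 10.48 and 10.66 on the PBS arrays. The adhesion genes Cdh5 and Pecam1 differed by 0.85 (SE 0.14, adjusted p = 0.00979) and 0.21 (SE 0.09, adjusted p = 0.146). Emcn, a sialomucin of capillaries and veins, rose by 2.63 (SE 0.14), and Tmem100, a transmembrane gene of lung endothelium, fell by 2.05 (SE 0.17). With each array shifted so that the mean of these markers was equal on all arrays, which moves the median of all genes to -0.37, Aplnr differed by 2.20, Angptl4 by 1.27, Apln by 0.74, Angpt2 by 0.61 and Angpt1 by 0.57. On that scale Tie1 stood at -0.07, Angpt4 at -0.49 and Tek at -0.68.

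The capillary types that Aplnr and Apln mark were counted apart. Of 10 general capillary markers, Aplnr left out, 6 rose, 1 fell and 3 did not pass, with a median of 0.95. Lpl and Gpihbp1, counted above with the genes that handle lipoprotein lipase, are among those that rose. Hmcn1, a matrix protein, rose by 1.36 (SE 0.09) and Cxcl12, a chemokine, by 1.16 (SE 0.11). The vasoconstrictor gene Edn1 fell by 1.17 (SE 0.09). After cyclic loess scaling 6 of the general capillary markers rose and 3 fell. Of 9 measured aerocyte markers, Apln left out, 3 rose, 4 fell and 2 did not pass, with a median of -0.31. Igfbp7, a secreted binding protein, rose by 1.43 (SE 0.09), Tbx2, a transcription factor, by 0.89 (SE 0.10) and Chst1 by 0.78 (SE 0.11), while Nckap5 fell by 1.09 (SE 0.09). Fibin (-0.76), Ednrb (-0.66) and Rgs12 (-0.55), named after their values were seen, fell as well. The mean level of the aerocyte list was 10.50 and 10.43 on the BLM arrays, against 10.43 and 10.52 on the PBS arrays. The difference between the lists was not tested.

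Markers of other endothelial states and vessels gave further counts. Of 10 sprouting and proliferation genes, among which Apln is often counted, 7 rose, none fell and 3 did not pass. Col15a1, a basement membrane collagen, rose by 1.83 (SE 0.10) and the angiogenic factor Pgf by 1.19 (SE 0.09). The 3 that did not pass were named after their values were seen. They were the chemokine receptor gene Cxcr4 at 0.20 and both proliferation genes of the list, Mki67 at -0.21 (adjusted p = 0.236) and Top2a at -0.17 (adjusted p = 0.23). The BLM values lay above both PBS values for Cxcr4 and below both for Mki67 and Top2a, where 63.3% of all genes show no overlap. Of 7 measured lymphatic markers, 6 rose and 1 fell, with a median of 0.98. Prox1, the transcription factor that sets lymphatic identity, rose by 1.90 (SE 0.09). Lyve1, a hyaluronan receptor also found on some macrophages, fell by 1.11 (SE 0.17). Of 11 measured macrophage markers 8 rose and 1 fell, and the part of macrophages in the Lyve1 difference was not tested. Of 10 arterial markers 5 rose and none fell, and of 9 venous ones 5 rose and 2 fell. The arterial markers gave 6 rises and 2 falls under the filter on dim genes, and 5 rises and 2 falls after cyclic loess scaling. Among venous markers, Nr2f2, a regulator of venous identity, rose by 1.29 (SE 0.12), and Vwf, which is stored with angiopoietin-2 in endothelial granules, fell by 0.86 (SE 0.09). The 7 venous calls became 3 without BLM replicate 1 or 2 and 4 without PBS replicate 1.

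**Figure D4:**
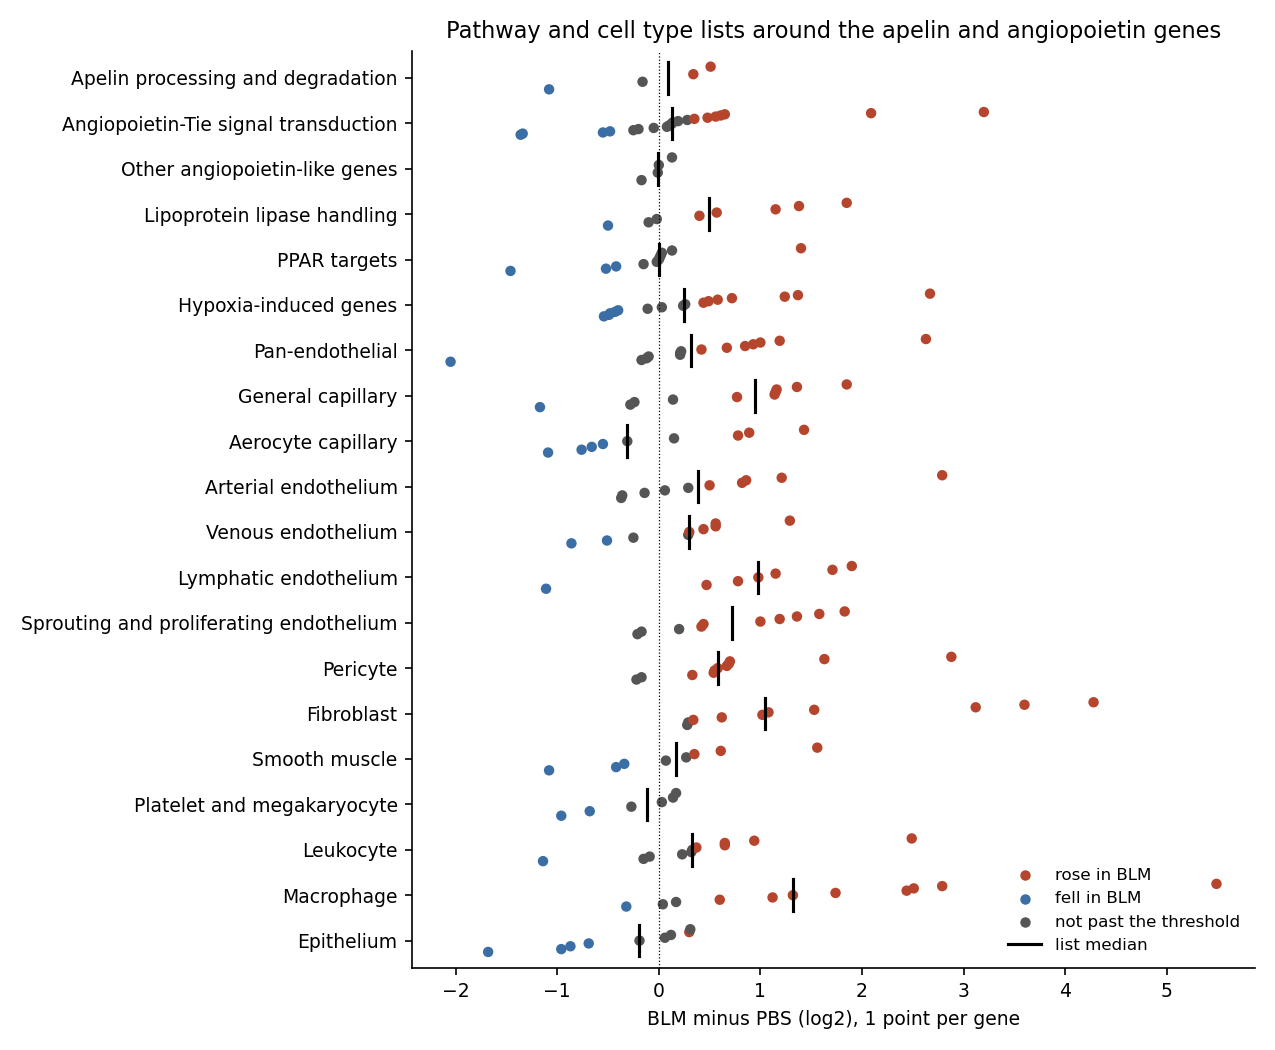
Difference between BLM and PBS arrays in log2 units for every measured gene of the pathway and cell type lists, 1 point per gene, coloured by whether it rose, fell or did not pass, with a black bar at each list's median. The median lies at 0.95 for general capillary and at -0.31 for aerocyte markers.

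Cells other than endothelium make several of these factors. Of 11 pericyte markers, the cells that wrap capillaries and are a source of Angpt1, 9 rose, none fell and 2 did not pass. Pdgfrb, their growth factor receptor, rose by 2.88 (SE 0.09). Their mean level was 7.61 and 7.57 on the BLM arrays, against 6.83 and 6.85 on the PBS arrays, and the calls became 4 without BLM replicate 1. Of 10 measured fibroblast markers 8 rose and none fell, with a median of 1.05, and mean levels of 11.95 and 11.93 on the BLM arrays, against 10.29 and 10.35 on the PBS arrays. Platelets also carry Angpt1. Of 6 measured platelet and megakaryocyte markers none rose, 2 fell (Ppbp at -0.96 and Itga2b at -0.68) and 4 did not pass. Their mean level was 6.97 and 6.96 on the BLM arrays, against 7.20 and 7.25 on the PBS arrays.

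The fraction is labelled as negative for CD45, and Ptprc, the gene of that protein, lay at 7.19 and 7.20 on the BLM arrays, against 6.30 and 6.21 on the PBS arrays, a rise of 0.94 (SE 0.08, adjusted p = 0.00166). Of 11 leukocyte markers 5 rose, 1 fell and 5 did not pass, with mean levels of 7.23 and 7.24 on the BLM arrays, against 6.86 and 6.77 on the PBS arrays. Of 11 measured macrophage markers 8 rose, 1 fell and 2 did not pass, with mean levels of 8.38 and 8.42 on the BLM arrays, against 6.75 and 6.79 on the PBS arrays. Macrophages express Angptl4 and Lpl as well. Of 8 smooth muscle markers 3 rose and 3 fell (3 calls in all with the replicate block). Of 9 measured epithelial markers 1 rose and 4 fell, and none rose with the replicate block, median centring or cyclic loess. Each of these lists also gave fewer calls without any single array. The part of pericytes, fibroblasts, leukocytes and the other cell types in the differences of the apelin and angiopoietin genes was not tested.

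Likeness of pattern was measured as the Euclidean distance between log2 values over the 4 arrays, after each gene's PBS mean was subtracted. The 3 named genes nearest to Aplnr, which had the greatest rise, were Ankrd37 (distance 0.0986), Gyg (0.137) and Mmp8 (0.177), which differed by 2.67, 2.62 and 2.52. Nearest to Tek, which had the lowest difference, were Zfp688 (0.0405), Rdh11 (0.0407) and Tra2a (0.0429), at -0.25, -0.25 and -0.24. With 4 arrays in 2 groups the measure reads little beyond the size of the difference between groups.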

How the data were processed

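The authors deposited 1 log2 value per transcript cluster and array, and the submitters' processing notes name RMA and Affymetrix Expression Console. RMA subtracts background, equalises the distributions of the arrays and combines the probes of a cluster. Versions and array build were not given in the sources used here. Detection calls were not used, and the number of arrays limits the precision.

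Clusters with exactly 1 gene symbol in the platform annotation were kept (30604, against 2146 with several), symbols were updated through Entrez identifiers, and the row with the highest mean stood for each of 30142 genes. Each member had a single row. The test was limma 3.58.1 (R 4.3.3; lmFit and eBayes, two-sided), its p-values adjusted by Benjamini-Hochberg over every gene, on 2 residual and 3.33 prior degrees of freedom. The procedure was also run on simulated data, which cannot show how reliable the calls on these arrays are. All members were named, and of each list up to 4 called genes with the largest differences plus a panel. Genes marked as named after their values were seen came on top of these. Members, lists and tests were chosen with earlier results of these data known. Alternatives were a replicate block, leaving out arrays, a filter on dim genes, row means, another prior and 3 scalings.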

Additional observations from a re-analysis of the deposited data

How the results depend on the processing

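Aplnr, Angptl4, Apln, Angpt2 and Angpt1 stayed past the threshold under all 10 alternatives other than the pan-endothelial shift, with differences of 2.48 to 2.70, 1.60 to 1.77, 0.98 to 1.34, 0.95 to 1.11 and 0.90 to 1.09. Tek ranged over -0.44 to -0.10 and passed with cyclic loess (-0.44), Tie1 over 0.17 to 0.46 and Angpt4 over -0.12 to -0.02, without passing. The pan-endothelial shift moved all genes together and gave limma a spread shared by all of them, so its p-values are not read: Tek stood at -0.68 and Angpt4 at -0.49 there, and Tie1 turned to -0.07. Leaving out 1 array gave 4003 to 5956 genes past the threshold in all, 2333 to 3521 higher and 1670 to 2435 lower in BLM, against 7629, 4582 and 3047. With 1 BLM array left, the spread comes from the PBS arrays only. Angpt2 minus Angpt1 ranged over -0.06 to 0.15 without each array. For the 79 other genes named by size of difference or as part of the panel, 788 gene and setting pairs were read. There 26 calls were lost, none was gained, and only Vegfa changed sign (-0.16 with cyclic loess, and -0.01 to 0.06 without each array). With the replicate number as a block, which no source ties to a shared animal or batch (correlation of deviations 0.014), Furin (0.34, adjusted p = 0.0602) and Cnn1 (-0.42, adjusted p = 0.0597) lost their calls, and all 5 called members kept theirs. Genes near the median level, such as Angpt4, are limited by the array's dim range.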
